A study of Mus musculus with 4 samples.

Results

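The transcription factors that set and maintain myeloid identity are encoded here by 6 genes, Spi1 (PU.1), Cebpa, Cebpb, Cebpd, Mitf and Tfec, and their messenger RNAs were examined for sites of N6-methyladenosine (m6A). The genes were taken by name, and every row of the site tables whose gene was one of the 6 was used: 81 of 45668 called sites in mouse 1 and 79 of 47747 in mouse 2. All 6 genes had called sites in both animals. The cells were bone marrow-derived macrophages (BMDM) of 2 wild-type mice, grown from marrow and exposed to lipopolysaccharide (LPS) for 3 h, so there is no resting group to set them against. From each animal 1 library was immunoprecipitated (IP) and 1 served as input, 4 libraries in all, and the labels used here give no strain, sex or age. Both site tables are also named NTC, a term left unexplained by the labels. Whether the animals' cells were cultured once or several times is not stated either, so differences between the mice may be technical.

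PU.1 is an ETS-family factor that opens myeloid enhancers and is required for macrophages to form. C/EBP alpha directs early myeloid differentiation, while C/EBP beta and C/EBP delta are leucine zipper factors that are induced in inflammation and act on cytokine promoters. Mitf and Tfec belong to the MiT family of basic helix-loop-helix leucine zipper factors. Mitf acts in melanocytes, mast cells and osteoclasts, and Tfec is largely restricted to the macrophage lineage. m6A is written on adenosines of messenger RNA while it is made, often close to stop codons and in 3' untranslated regions (3' UTRs), and is read by YTH proteins that shorten the life of many transcripts.

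In m6A-eCLIP, RNA is crosslinked to an antibody against m6A and the positions where reads start place each site at 1 nucleotide. Each site has a score and a fold, both printed here as the authors gave them. The fold sets read starts of the IP against those of that animal's input, so it is a ratio at that nucleotide and not a level of the transcript. A site was called enriched at a fold of at least 8. The tables give no read numbers, so depth is unknown and no interval could be set on the fold of a site, and both mice's folds are printed instead. In bulk RNA, fewer cells of a type and less RNA per cell cannot be told apart. All 7 macrophage marker genes examined had called sites in both mice. So did 5 of 7 neutrophil, 2 of 7 lymphocyte, 1 of 5 dendritic cell and 1 of 4 stromal or endothelial markers. A site enriched in both mice was found in 6 of the macrophage genes (not in Itgam) and in all these called genes of the other lists. Over all genes with a called site in both mice that share was 86.9%. The share of all genes that had a called site was not computed. None of the 7 markers of mast cells and melanocytes had a called site. Osteoclasts were not among the marker lists. Acp5, Ctsk and Atp6v0d2, MiT targets used as osteoclast genes, had 2, 1 and 1 sites enriched in both mice. Oscar, an osteoclast receptor gene also listed as a MiT target, had no called site. These genes were not chosen beforehand as osteoclast markers. A gene without a called site is not thereby unexpressed, and the part of other cell types in these values was not tested.

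The only sequence at hand was that around gene starts, from the RefSeq table of the GRCm38.p6 build, which has the coordinates of mm10. It held windows for 4 of the 6 genes, and 1 called site of these genes lay inside them. This was the 5' UTR site of Cebpa, shown because it falls on the first transcribed base of the RefSeq gene. The 30 bases on the plus strand at chr7:35119278-35119307 are given below with the called nucleotide in capitals.
Cebpa: cgcgcgggcctggccAttcgcgacccgaag
The called nucleotide is an A preceded by C and followed by T. All 4363 called sites of mouse 1 and all 4563 of mouse 2 that lay in the window of their own gene were also on an A. The site caller is not given, so whether it keeps only sites on an A is unknown. A C stood before the A in 63.1% of such sites in mouse 1 and in 62.3% in mouse 2. The letters AAC or GAC centred on the site, read on the transcribed strand only, were found in 2.53% and 2.84% of them, and the Cebpa site does not carry them. Sites exactly on the first transcribed base numbered 464 in mouse 1 and 485 in mouse 2, with median folds of 13.04 and 12.5. The Cebpa site had folds of 26.1 and 18.3. Whether the modification was m6A itself was not tested, neither at a first transcribed base nor at other sites in these windows. The same holds for the other 5' UTR sites of the 6 genes. An A at the first base was present in 34.4% of all 32851 RefSeq start windows, and an A there with C before it in 19.2%.

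Over the 6 genes, 66 of 81 called sites of mouse 1 were enriched (81.5%, exact 95% interval 71.3% to 89.2%) and 65 of 79 sites of mouse 2 (82.3%, 72.1% to 89.96%). Over all called sites the shares were 81.7% in mouse 1 and 79.1% in mouse 2, so the 6 genes lay near the background. These intervals cover counting error only, and neighbouring sites of 1 transcript are not independent. The sites occupied 89 positions, of which 71 were called in both mice, 10 in mouse 1 alone and 8 in mouse 2 alone. The 71 made up 87.7% of the genes' called sites in mouse 1 and 89.9% in mouse 2. Over all called sites, 83.4% of those of mouse 1 and 79.8% of those of mouse 2 were called in both. Of the 71 shared sites, 55 were enriched in both animals (77.5%, 66.00% to 86.5%), against 76.9% over all 38082 sites called in both mice at the same nucleotide. The 55 sites made up 83.3% of what was enriched in mouse 1 and 84.6% of what was enriched in mouse 2. Over all genes, 29288 sites were enriched in both mice, beside 37333 enriched in mouse 1 and 37764 in mouse 2.

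**Figure D1:**
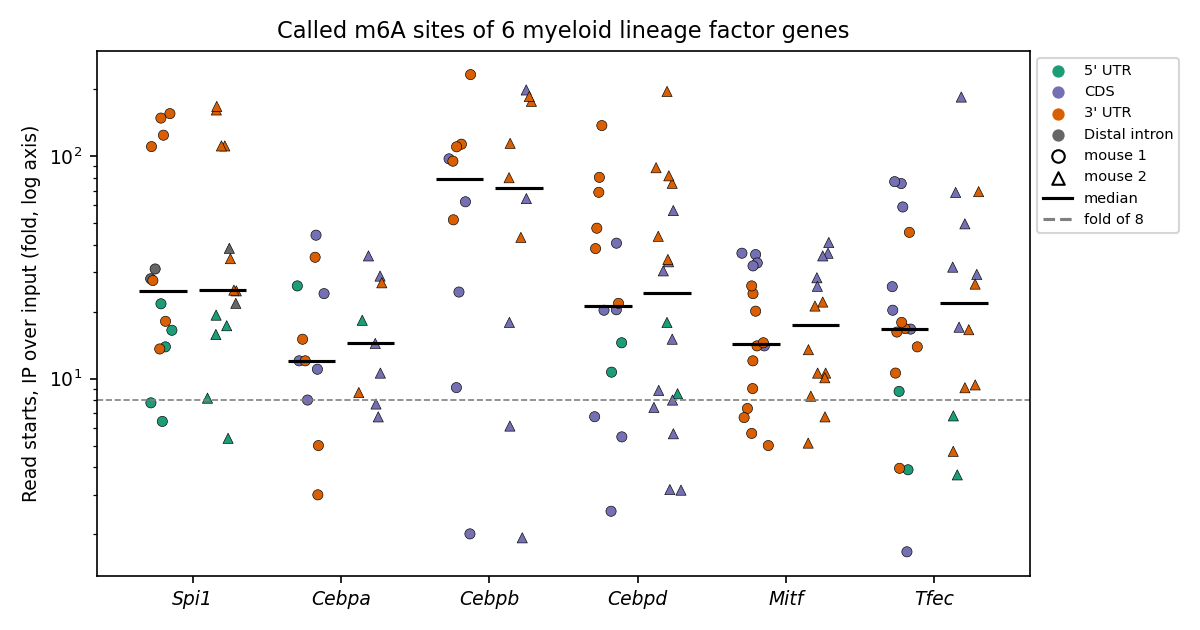
Fold of read starts, IP over input (log axis), for every called site of the 6 genes; circles are mouse 1, triangles mouse 2, colours the annotated position, and black lines medians. The medians of Cebpb are the highest, at 78.5 in mouse 1 and 72.1 in mouse 2, and most sites of each gene lie above the dashed line at a fold of 8.

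By annotated position, 34 of the 66 enriched sites in mouse 1 lay in the 3' UTR (51.5%, 38.9% to 64.01%), as did 32 of the 65 in mouse 2 (49.2%, 36.6% to 61.9%). Over all enriched sites these shares were 35.6% and 36.6%. Cebpa lay below them, at 33.3% in mouse 1 and 28.6% in mouse 2, and each of the other genes lay above them in both mice. The intervals treat neighbouring sites of 1 transcript as independent, which they are not. Coding sequence (CDS) held 34.8% in mouse 1 and 36.9% in mouse 2, against 41.8% and 41.7% over all enriched sites. The 5' UTR held 7 sites in each mouse, 10.6% and 10.8%, against 15.03% and 14.6%. The remaining 2 sites in each mouse were intronic, both in Spi1. No test was made of these shares, because the genes were chosen with earlier results of these data known.

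**Figure D2:**
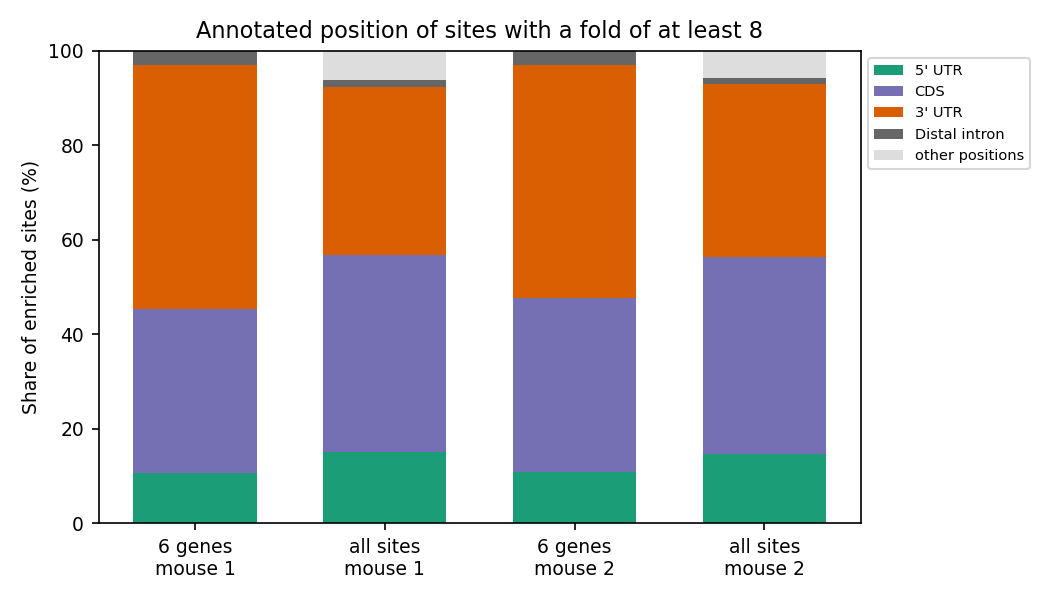
Share of enriched sites (fold of at least 8, %) by annotated position, for the 6 genes and for all sites of each mouse. The 3' UTR block of the 6 genes is 51.5% in mouse 1 and 49.2% in mouse 2, beside 35.6% and 36.6% for all sites.

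Spi1, on the plus strand of chromosome 2 (RefSeq extent 91082374 to 91115759), had 14 called sites, and all 14 were called in both mice. No site was called in its coding sequence in either animal. The 4 strongest sites belonged to a run of 7 in the 3' UTR, spread over 158 bases from position 91115440 to 91115598, the last of them 161 bases from the RefSeq end of the gene. The site at 91115462 had folds of 155 in mouse 1 and 161 in mouse 2. Its neighbour at 91115473 had folds of 110.2 and 167. The sites at 91115563 (148 and 111) and 91115495 (124 and 111) were also above 100 in both animals. Only 2 bases after 91115473, the site at 91115475 had folds of 13.6 and 24.99, so high and low ratios alternated over a few nucleotides. That site nonetheless had scores of 122 and 159, close to those of its neighbour (137 and 148).

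Upstream, Spi1 carried 2 sites annotated as distal intron, 14 bases apart. The site at 91089959 had folds of 28.1 in mouse 1 and 38.5 in mouse 2, and that at 91089973 had 31.1 and 21.8. Both were enriched in both animals, and no other RefSeq gene overlaps the stretch that the Spi1 sites span. A group of 5 sites lay within 25 bases of the 5' UTR, from 91096756 to 91096781, with folds between 6.43 and 21.7 in mouse 1 and between 5.40 and 19.3 in mouse 2. In mouse 2 all 5 were below every 3' UTR site of the gene (at least 24.8), while in mouse 1 the ranges overlapped. Of the 5, 3 were enriched in both animals.

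Among the C/EBP genes, Cebpb had the highest median fold in both mice (78.5 and 72.1) and Cebpa the lowest (12.03 and 14.4). Each of the 3 genes is short, and the distances given are those on the genome. Cebpa extends over 2636 bases of RefSeq annotation (chromosome 7, plus strand), Cebpb over 1518 (chromosome 2, plus strand) and Cebpd over 2260 (chromosome 16, plus strand). The positions called in either mouse amounted to 4.55 per kilobase in Cebpa, 6.59 in Cebpb and 7.96 in Cebpd.

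Cebpb, which encodes the C/EBP factor most closely tied to inflammatory macrophage genes, had 10 called sites in each mouse at the same 10 nucleotides. Its strongest shared site, in the 3' UTR at 167690106, had folds of 232 in mouse 1 and 176 in mouse 2. The site at 167690154 had 113 and 185. A coding site at 167689446 had 97.1 and 198, a difference of -1.03 between mouse 1 and mouse 2 on the log2 scale and the widest of the gene. The 3' UTR sites at 167690147 (94.8 and 114) and 167690174 (110.0 and 79.9) followed. All 5 sites of the 3' UTR lay within 173 bases and had folds of at least 43.1 in both mice. At the other end of the coding sequence the ratios were small. The site at 167689202 had folds of 2.01 and 1.93, and the one 4 bases further, at 167689206, had 9.12 and 6.13, enriched in mouse 1 alone. No 5' UTR site was called for Cebpb.

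Cebpd had the most called sites of the C/EBP genes, 14 in mouse 1 and 18 in mouse 2. All 4 sites called in mouse 2 alone were coding. The leading 3' UTR site, at 15888403, had folds of 137 in mouse 1 and 88.6 in mouse 2. At 15888380 the folds were 47.4 and 195, a log2 difference of -2.04 and the widest between the mice among the 71 shared sites. The site at 15888262 had 80.2 and 81.5, a log2 difference of -0.02. At 15888153 the folds were 38.4 and 75.4, and at 15888225 they were 68.7 and 34.3, so neighbouring sites differed between the mice in opposite directions. In all, 11 of the 14 shared Cebpd sites had the higher fold in mouse 2, with a median difference of -0.40 (mouse 1 minus mouse 2, log2). Over all 38082 shared sites that median was -0.02. With 1 IP library per animal this difference has no test.

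The 6 sites of the Cebpd 3' UTR fell within 250 bases and ended 1142 bases before the RefSeq end of the gene, and none was called beyond them. At the front of the gene the folds were smaller. A pair of 5' UTR sites lay 1 and 3 bases from the RefSeq start, at 15887287 (14.5 and 17.9) and 15887289 (10.7 and 8.56). Whether the modification at this pair was m6A itself was not tested. Coding sites ranged between 2.54 and 40.6 in mouse 1 and between 3.16 and 56.9 in mouse 2, with the strongest at 15887564.

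Cebpa had 11 called sites in mouse 1 and 9 in mouse 2, at 12 positions of which 8 were shared. The strongest lay in coding sequence at 35120423, with folds of 44.1 and 35.6. In the 3' UTR, the site at 35120603 had 35.1 and 26.96. The coding sites at 35120380 (12.03 and 28.9) and 35119726 (11.03 and 10.6) and the site on the first base, shown above, complete the 5 that were enriched in both animals. At 35120428, only 5 bases from the strongest site, the folds were 24.1 in mouse 1 and 6.74 in mouse 2. Sites called in mouse 1 alone (3 in the 3' UTR) had folds of 15.04, 12.03 and 3.01.

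**Figure D3:**
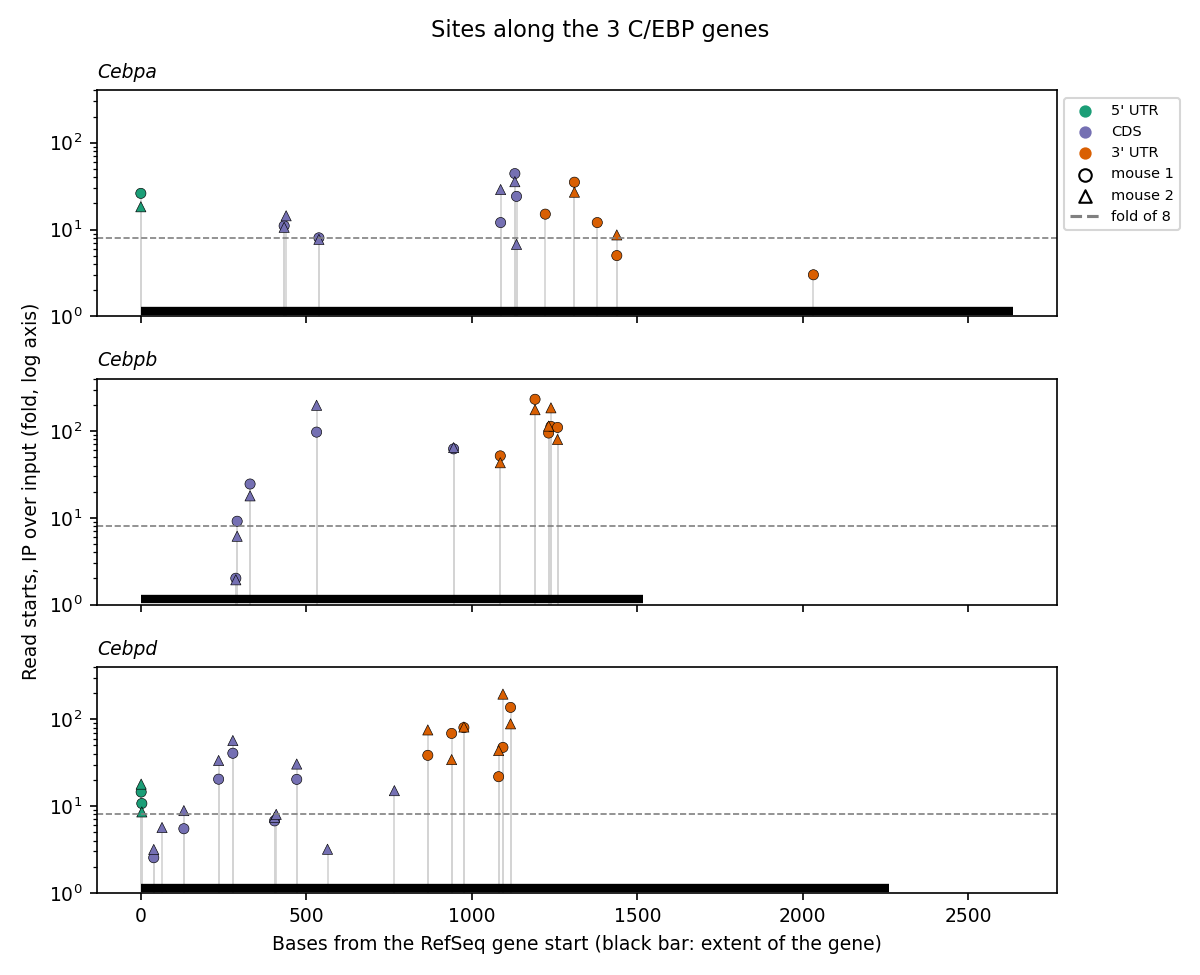
Fold of read starts, IP over input (log axis), against the distance in bases from the RefSeq gene start for Cebpa, Cebpb and Cebpd; circles are mouse 1, triangles mouse 2, and the black bar is the extent of the gene. In Cebpb and Cebpd the 3' UTR sites lie within 173 and 250 bases and reach the highest folds in mouse 1, and the Cebpa sites stay at or below 44.1.

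Mitf, on the plus strand of chromosome 6, extends over 214359 bases in RefSeq, introns included. Every called site lay within 3557 bases of the RefSeq end of the gene. The RNA was poly(A)-selected, so the extent on the genome is not the length of the messenger RNA. How much of that RNA those 3557 bases make up was not examined. There were 16 sites in mouse 1 and 14 in mouse 2, at 19 positions, and 8 were enriched in both animals. The strongest were coding. The site at 98018054 had folds of 36.6 in mouse 1 and 40.9 in mouse 2. Close by, the site at 98017896 had 33.1 and 36.6, that at 98017803 had 36.1 and 28.4, and that at 98017949 had 14.04 and 26.00. The coding sites spanned 251 bases, and all were enriched in each mouse in which they were called. At 98018050 a site with a fold of 32.1 was called in mouse 1 alone, and 10 bases before it, at 98018040, one with 35.6 was called in mouse 2 alone.

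The 3' UTR of Mitf had 13 positions spread over 2971 bases. Only 7 of them were shared and only 4 enriched in both mice, the strongest at 98019860 with folds of 24.1 and 21.2. Its folds ranged between 5.01 and 26.1 in mouse 1 and between 5.14 and 22.1 in mouse 2. In mouse 2 every coding site of Mitf was above every 3' UTR site, and in mouse 1 every coding site but 1 was. Mitf also had the most sites called in only 1 animal, 5 in mouse 1 and 3 in mouse 2.

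Tfec lies on the minus strand of chromosome 6 (RefSeq extent 16830927 to 16898464) and had 16 called sites in mouse 1 and 14 in mouse 2. Its strongest site, the last coding one, lay at 16834038 with folds of 76.7 in mouse 1 and 184 in mouse 2. The coding sites at 16834224 (59.04 and 68.6), 16834198 (75.2 and 49.6) and 16834042 (25.9 and 31.7) and the 3' UTR site at 16833861 (45.4 and 69.2) followed. Of the 11 sites enriched in both mice, 9 lay within 375 bases on both sides of the end of the coding sequence. Positions 16834038 and 16833947, the last coding and the first 3' UTR site, were 91 bases apart.

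The scores of Tfec did not always follow its folds. A pair of 5' UTR sites at 16898373 (8.77 and 6.81) and 16898369 (3.90 and 3.70) had scores between 74.4 and 79.6, above the median score of all called sites (31.4 in mouse 1 and 31.9 in mouse 2). The weakest Tfec site of mouse 1, at 16844251 with a fold of 1.67, had the lowest score of the gene (10.7), and the strongest site had scores of 87.9 and 89.7. Neither 5' UTR site was enriched in both mice.

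**Figure D4:**
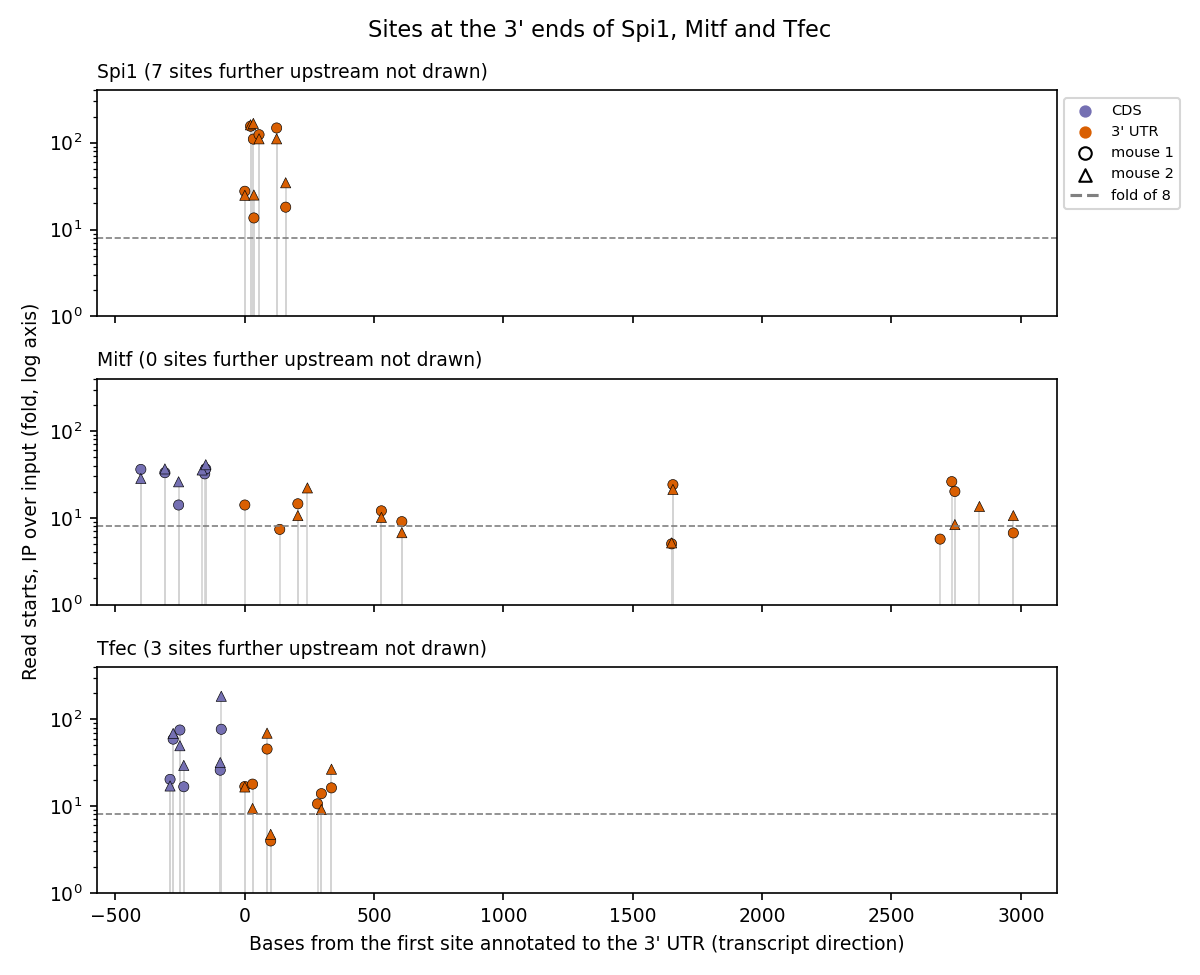
Fold of read starts, IP over input (log axis), against the distance in bases from the first site annotated to the 3' UTR, in transcript direction, for Spi1, Mitf and Tfec; circles are mouse 1 and triangles mouse 2. The 7 Spi1 sites lie within 158 bases, the Tfec sites lie on both sides of the boundary, and the Mitf 3' UTR sites spread over 2971 bases at folds of at most 26.1.

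Ordered by the mean log2 fold of the strongest shared site, the genes ran Cebpb (7.66), Spi1 (7.31), Tfec (6.89), Cebpd (6.79), Cebpa (5.31) and Mitf (5.27). Both folds of Cebpb lay above both of Spi1, both of Spi1 above both of Cebpd, and both of Cebpd above both of Cebpa. The folds of Tfec overlapped with those of Cebpb, Spi1 and Cebpd, and the folds of Cebpa with those of Mitf, so their places relative to each other are not resolved. At these sites Tfec came first in mouse 2 and after Cebpd in mouse 1. Among 7608 genes with a site called at the same nucleotide in both mice, Cebpb ranked 62 by this value, Spi1 143 and Tfec 328. Cebpd ranked 395, Cebpa 2282 and Mitf 2342. A highest value can rise with the number of shared sites, which was 8 to 14 in the 6 genes. The ranks were not adjusted for that number. By number of sites enriched in both animals, Spi1 had 12, Tfec and Cebpd 11 each, Cebpb and Mitf 8 each and Cebpa 5, against a median of 2 over 7827 genes with a called site in both mice (quartiles 1 and 5).

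Across the 71 shared sites, the log2 folds of the mice correlated with r = 0.92 (Pearson) and rho = 0.91 (Spearman), while all 38082 shared sites gave 0.74 and 0.70. The points are nucleotides of 6 transcripts in the same 2 pairs of libraries, so no p is attached, and the strong and weak stretches of each gene add to the value. The median absolute log2 difference was 0.42 for the 6 genes and 0.56 for all shared sites. Differences of more than 1 on the log2 scale occurred at 7 of the 71 sites (9.86%), against 26.8% of all shared sites. They were found in Cebpa (2 sites), Cebpd (2), Cebpb, Mitf and Tfec (1 each), and none in Spi1. The called sites of the 6 genes also had higher median scores, 55.7 in mouse 1 and 60.3 in mouse 2. Over all called sites these were 31.4 and 31.9. Whether the scores bear on the smaller differences between the mice was not tested.

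**Figure D5:**
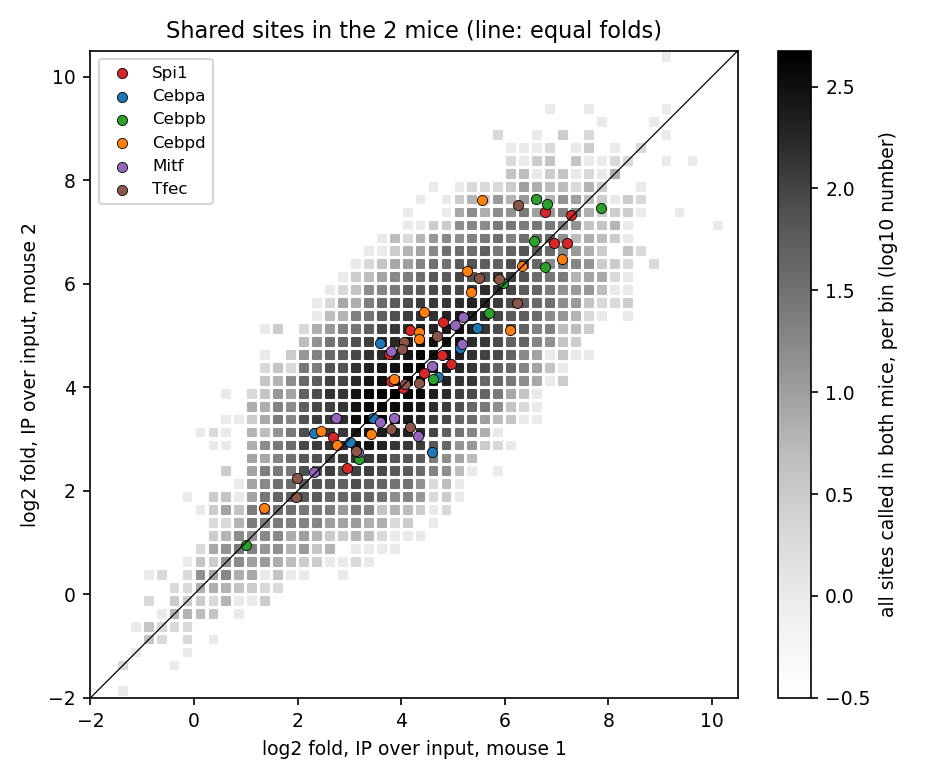
log2 fold of IP over input in mouse 1 (horizontal) and mouse 2 (vertical) for the 71 shared sites of the 6 genes, coloured by gene, over the number of all shared sites per bin in grey; the line marks equal folds. The coloured points follow the line with a median absolute difference of 0.42, and the farthest is a Cebpd site at -2.04.

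The grain of the folds differed between the genes. Divided by a constant of its table (1.003 in mouse 1 and 0.963 in mouse 2), the fold was a whole number, within 1e-06, at 62.1% of all sites of mouse 1 and 62.01% of mouse 2. In Cebpa this held for 11 of 11 sites in mouse 1 and 9 of 9 in mouse 2. In Mitf it held for 11 of 16 and 9 of 14. It was rare in the others, at 2 of 14 and 4 of 14 in Spi1, 1 of 10 and 2 of 10 in Cebpb, 2 of 14 and 2 of 18 in Cebpd, and 1 of 16 and 0 of 14 in Tfec. Of 1308 genes with at least 9 called sites in each mouse, 18 (1.38%) had only whole ratios in both. The limit of 9 equals the number of Cebpa sites in mouse 2, and the share is given at this limit only. Over the 1308 genes the median share of whole ratios was 66.7% in each mouse. Cebpa and Mitf were also the genes with the lowest leading folds and with the lowest median scores, 19.96 in mouse 1 and 27.4 in mouse 2 for Cebpa and 32.3 and 31.8 for Mitf. Whether the grain, the scores and the folds share a source in read depth was not tested.

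Sites called in both animals had the higher scores, with medians of 62.3 in mouse 1 and 64.7 in mouse 2. The sites called in mouse 1 alone had a median score of 15.6, and those called in mouse 2 alone one of 25.1. Of these, 6 of 10 (exact interval 26.2% to 87.8%) and 6 of 8 (34.9% to 96.8%) had a fold of at least 8. Neither these shares nor the score medians of shared and unshared sites were computed over all genes. Whether they are particular to the 6 genes was therefore not tested. All Spi1 and Cebpb sites were called in both mice, against 83.4% of all called sites of mouse 1 and 79.8% of mouse 2.

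By a likeness over 4 values (the log2 number of called sites and the log2 highest fold, in each mouse), 7299 other named genes were set against each factor. Nearest to Spi1 was Neurl3, with 14 sites in mouse 1, 13 in mouse 2 and highest folds of 157 and 159 (distance 0.13). Nearest to Cebpd was Zfp703 (15 and 18 sites, highest folds of 132 and 202, distance 0.12). Cebpb was nearest to Wdr26 (10 and 11 sites, 245 and 185), Cebpa to Cuedc1 (10 and 9 sites, 45.1 and 34.7), Tfec to Tdrd7 (14 and 14 sites, 73.2 and 179) and Mitf to Sfswap (14 and 15 sites, 39.1 and 39.5). The likeness rests on 2 animals.

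Related factors were examined as lists, each described by its count of genes with at least 1 site enriched in both mice. Over all 7827 genes with a called site in both mice, 86.9% had such a site, and 60.2% had one with a fold of at least 16 in both. All 6 genes described above had one at both limits. Of 15 other ETS factors, 12 had called sites in both mice and all 12 had a shared enriched site (10 at a fold of at least 16). Etv3, an ETS repressor, was the highest (659 in mouse 1 and 164 in mouse 2, CDS), followed by Ets2 (111 and 114, 3' UTR) and Elf1 (56.7 and 121, CDS). Spib and Spic, the closest relatives of Spi1, had no called site, nor did Ets1.

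Of 4 further genes, 3 with C/EBP in their name and Ddit3, which encodes the stress-induced C/EBP family member CHOP, 3 had a shared enriched site (2 at a fold of at least 16). The highest was Cebpg (32.1 and 40.4), a C/EBP without a strong activation domain of its own, then Cebpz (27.1 and 26.00) and Ddit3 (10.03 and 17.8). Cebpz shares the name, but its protein lacks the C/EBP leucine zipper. Cebpe, a factor of granulocyte maturation, had no called site. The other MiT factors had fewer sites than Mitf and Tfec. Tfe3 had 1 shared enriched site (54.2 and 17.3) and Tfeb had 2, the stronger with 17.05 and 17.3. Both drive lysosomal genes.

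Of 18 partners and antagonists of PU.1, 13 had called sites in both mice and all 13 had a shared enriched site (11 at a fold of at least 16), with a median of 8 such sites per gene. Jun, an AP-1 subunit that PU.1 binds, was the highest (443 and 528). Bach1, a repressor of heme genes, had 112 and 332, and Maf, which counters self-renewal of macrophages, had 131 and 177. Gfi1, Gata1, Gata2, Myb and Bach2, factors of other blood lineages or of progenitors, had no called site.

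Of 18 genes known as PU.1 or C/EBP targets, 15 had called sites in both mice and 14 had a shared enriched site (10 at a fold of at least 16), with a median of 2 per gene. Tlr4, the LPS receptor, had 129 and 126, Il1b (interleukin 1 beta) 94.4 and 105, and Fcgr1, an Fc receptor, 75.7 and 54.9. The integrin gene Itgam had 1 shared site, at 19.1 and 6.92, and so none enriched in both. Csf3, Arg1 and Ly96 had no called site. Of 14 genes known as MiT targets, 8 had called sites in both mice and all 8 had a shared enriched site (5 at a fold of at least 16). Fnip2, a partner of folliculin, was the highest (49.1 and 49.1), followed by Gpnmb, a lysosomal glycoprotein gene (39.2 and 39.00), and the lysosomal chloride channel gene Clcn7 (45.1 and 20.7). Ctsd, Sqstm1, Atp6v1h, Oscar and Rragd had no called site, and Mcoln1 had 1 in mouse 2 alone. These lists were chosen with earlier results of the data known, so the counts describe them and were not tested.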

How the data were processed

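Per the submitters' processing notes, cutadapt 2.7, STAR 2.6.0c and UMI-tools 0.5.1 were used, and the builds mm10 and hg38 are named; the site caller is not given in the sources used here. RNA was poly(A)-selected before the assay, per the labels' protocols. For each mouse the authors deposited a table of its own, with a score per site, not defined and always above 10, and a ratio (fold) of read starts, IP over input, per the file headers. No read numbers per library are given, so depth is unknown and no model of counts was run.

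Sites of 1 base were matched by nucleotide and strand. Enriched means a fold of at least 8 (log2 3). Positions are 1-based. Shares have exact (Clopper-Pearson) 95% intervals. With 2 animals and no second condition, no test was made. Members and lists were chosen with earlier results of these data known. Named sites were all sites enriched in both mice in genes with at most 6, otherwise the 5 with the highest mean log2 fold; other sites were named after their values were seen. Lists name at most 3 genes by strongest shared site plus those without called sites; the nearest gene was taken for each member. The matching, merging and constant were tested on simulated data. Gene extents and the Cebpa sequence are from RefSeq, GRCm38.p6. Alternatives are given at the end. Python 3.11.15, pandas 2.3.3, NumPy 2.4.6, SciPy 1.17.1 and Matplotlib 3.10.9 were used.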

Additional observations from a re-analysis of the deposited data

How the results depend on the processing

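No paired analysis was possible because the tables hold no separate IP and input values to which a replicate block could be fitted; the fold is itself IP over input within each mouse. All 37 alternative values for the 6 genes together stayed within 1.5 times the main count, or within its interval for shares. Sites enriched in both mice numbered 42 at a log2 fold limit of 4, 70 at a limit of 1, 56 with the limit set before each table's constant, 53 at a score of at least 20, 57 when matched within 5 bases and 51 with sites within 5 bases merged. With only 1 mouse no site can be shared. The values then, 65 without mouse 1 and 66 without mouse 2, repeat the other mouse's main count of enriched sites. They are among the 37 values and say nothing about stability. Of 96 values for single genes, orders and lists, 16 moved. At log2 fold 4, Cebpa kept 4 enriched sites in mouse 1 and 4 in mouse 2, Mitf 7 and 7, and 5 MiT target genes had a shared site; a higher limit leaves fewer sites by construction. At a score of at least 20, Cebpa kept 5 enriched sites in mouse 1. In the order by strongest shared site, with the sites kept, leaving out a mouse moved Cebpb between 1 and 2, Spi1 between 2 and 3, Tfec between 1 and 4, Cebpd between 3 and 4, and Cebpa and Mitf between 5 and 6. By the median over shared sites, Cebpd was 2, Spi1 3 and Tfec 4; the cause was not tested. Without read numbers, the precision of a single fold cannot be given.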
